A study of Danio rerio with 12 samples.

Results

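Losing a fight against a real opponent was compared with fighting a mirror image, in the whole brains of adult zebrafish of the AB wild-type strain. The comparison set the 3 arrays labelled losers against the 3 labelled mirror fighters, 6 of the 12 arrays of the study. Losers came from a fight with another fish. Mirror fighters faced their own reflection, an opponent that fish do not recognise as themselves and that gives a fight with no outcome. Winners of real fights and socially isolated fish, with 3 arrays each, supplied the remaining arrays. They are given beside many of the genes named below, in the text or in figures. All 4 groups carried the same genotype and had been kept alone for 5 days beforehand, and the brains were collected 30 min into the encounter or its control condition. The labels give neither the sex of the fish tested nor how many brains went into an array, so p-values measure only the spread between these samples, which may be technical. A mirror fight differs from a lost fight in the outcome and also in contact with a live opponent, and the loser and mirror fighter arrays alone cannot tell these apart.

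Neurons that fire strongly switch on a set of immediate early genes within minutes. Some encode transcription factors, such as the Fos and Jun subunits of AP-1 and the Egr zinc finger proteins. Others encode feedback regulators that dampen the signalling that induced them. A later wave includes secreted and synaptic proteins such as the neurotrophin Bdnf, and many of these genes are read in fish brains as marks of recent activity.

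The arrays were one-colour Affymetrix zebrafish arrays, which give 1 signal intensity per probe set. After 115 control probe sets were left out, 15502 were tested, and the 10795 with exactly 1 symbol stood for 8793 genes. Median intensities per array lay between 94.1 and 104, and on log2 values loser arrays correlated with each other at 0.96 to 0.964, mirror fighter arrays with each other at 0.967 to 0.977, and loser with mirror fighter arrays at 0.946 to 0.968. Each loser array was nearest to a winner array, and mirror fighter array 1 was nearest to isolated array 1. Whole-brain markers were present: the neuronal gene elavl3 read 2957 to 3402 on loser arrays and 1543 to 2413 on mirror fighter arrays (limma adjusted p = 0.204), and the myelin gene mbpa read 9054 to 9905 and 9099.8 to 10324 on the same sets of arrays.

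Bacterial RNAs spiked into each sample did not read alike in the compared groups. The 14 hybridization control probe sets averaged a log2 intensity of 10.62, 10.44 and 9.99 on the 3 loser arrays, against 9.33, 9.34 and 9.51 on the 3 mirror fighter arrays. The groups did not overlap, and losers read 1.94-fold brighter (two-sided exact permutation p = 0.1, the smallest value that 3 against 3 arrays can give). The poly-A controls, added before labelling, averaged 6.76 ± 0.12 in losers and 6.22 ± 0.22 in mirror fighters (SD, n = 3 each; exact permutation p = 0.1), or 1.46-fold brighter in losers. Losers and winners differed in these controls by only -0.13 and 0.01 on the log2 scale. For the hybridization and poly-A controls, winners averaged 10.48 and 6.74 and isolated fish 9.37 and 6.38. In both kinds of control every array from a real fight lay above every mirror fighter and isolated array. Comparisons of losers or winners with mirror fighters or isolated fish therefore all carry this shift. The difference between the 3 prime and 5 prime signals of GAPDH, a measure of RNA integrity, was 0.61 ± 0.04 in losers and 0.66 ± 0.01 in mirror fighters (SD, n = 3 each; exact permutation p = 0.1). The same measure for actin was 0.89 ± 0.70 in losers and 1.62 ± 0.63 in mirror fighters (SD, n = 3 each; exact permutation p = 0.3). The spiked controls moved with the compared groups, and their part in the results was not tested. A fit that took the hybridization controls as a covariate is given below. As these controls did not overlap between the compared groups, that fit cannot tell their part from the group difference. With the covariate the standard error of the socs3a difference went from 0.345 to 0.773.

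**Figure D1:**
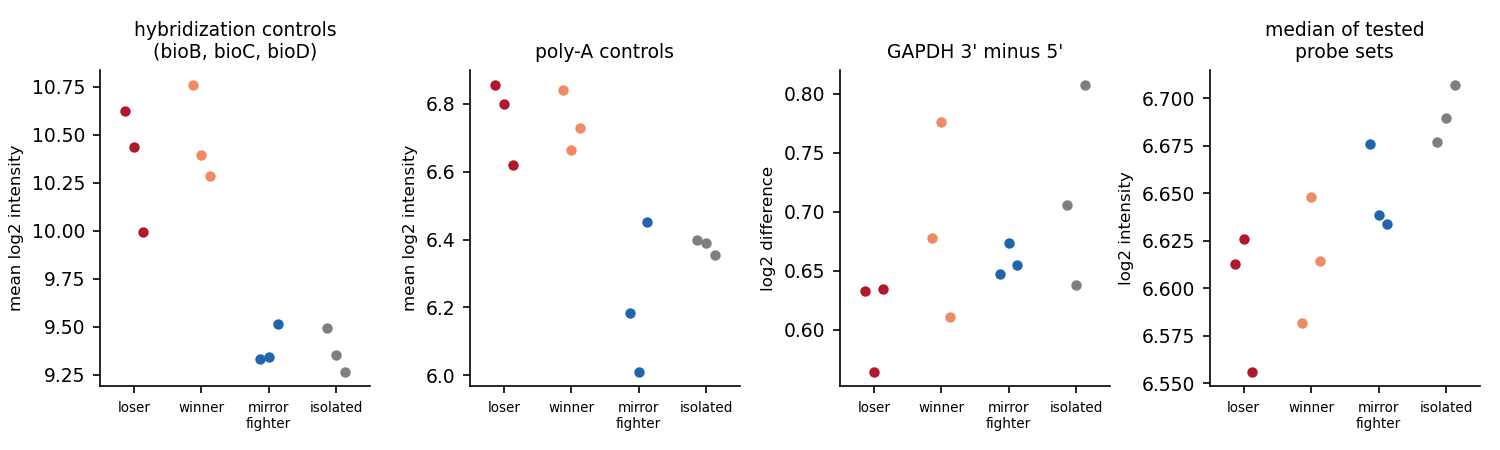
Control signals on each array, by group from losers to isolated fish. Each point is an array, and the panels give the mean log2 intensity of the hybridization controls and of the poly-A controls, the GAPDH 3 prime minus 5 prime difference and the median of tested probe sets. The 3 loser arrays lie above the 3 mirror fighter arrays in both kinds of spiked control.

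Signals of several activity-induced genes were higher in losers than in mirror fighters, while losers against winners gave 0 calls, as given below. The largest named rises were in socs3a, an inhibitor of cytokine signalling (8.69-fold), npas4a, a transcription factor induced by neuronal activity (5.68-fold), and the AP-1 subunit gene fosab (4.02-fold). The named falls included otpb, a homeobox gene of neuroendocrine cells in the hypothalamus (0.42-fold). In all, 27 of 15502 probe sets (0.174%) passed a limma adjusted p under 0.05. Of these, 22 were higher in losers (0.142%) and 5 were lower (0.0323%). This split depended on the processing. It was 25 higher and 2 lower with array medians set equal, 29 and 24 with 32 added before log2, 34 and 37 without the dimmest 25% of probe sets, 17 and 21 without moderation, and 497 and 853 with array weights. The 27 probe sets carried 18 named genes that rose, 3 that fell and 4 probe sets with no symbol. In whole brains, fewer cells of a type and less RNA per cell cannot be told apart.

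The differences were not one-sided over the array as a whole. The median log2 difference of losers minus mirror fighters over all probe sets was -0.0013, and 49.8% of them lay above 0. An unadjusted p under 0.05 was reached by 2744 probe sets (17.7%), of which 1175 (7.58%) were higher and 1569 (10.1%) lower in losers. On 3757 probe sets (24.2%) the groups did not overlap, with losers higher on 1594 (10.3%) and lower on 2163 (14.0%). Non-overlap of a single probe set was therefore common, and all 27 called probe sets shared it.

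The number of calls also depended on which arrays and terms entered the fit. With the 6 loser and mirror fighter arrays alone, limma called 0 probe sets (2582 at an unadjusted p under 0.05), and with the hybridization controls as a covariate it also called 0 (1392 at an unadjusted p under 0.05). Among loser and mirror fighter arrays, leaving out loser array 1, 2 or 3 gave 11, 1 or 18 calls, and leaving out mirror fighter array 1, 2 or 3 gave 1, 0 or 11 (1676 at an unadjusted p under 0.05 where 0 were called). Among the other arrays, leaving out winner array 1, 2 or 3 gave 27, 9 or 23 calls, and isolated array 1, 2 or 3 gave 10, 10 or 14. The covariate lowered the log2 difference of npas4a to 1.70 ± 0.54, of fosab to 1.12 ± 0.40, of tcima to 0.88 ± 0.34 and of egr4 to 0.90 ± 0.51, raised that of gadd45ba to 1.93 ± 0.35 and gave 3.15 ± 0.77 for socs3a (limma adjusted p = 0.265 to 0.631 over these 6 genes). Without loser array 2, mirror fighter array 1 or mirror fighter array 2, at most 1 call was left. The call left without loser array 2 was cela1.5, which read next to the floor. Without mirror fighter array 1 it was socs3a. No called gene chosen by the naming rule changed direction under any of these fits. All called probe sets lacked overlap between the groups, so leaving out 1 array could not reverse a difference. Of these fits, only the one with the covariate could.

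**Figure D2:**
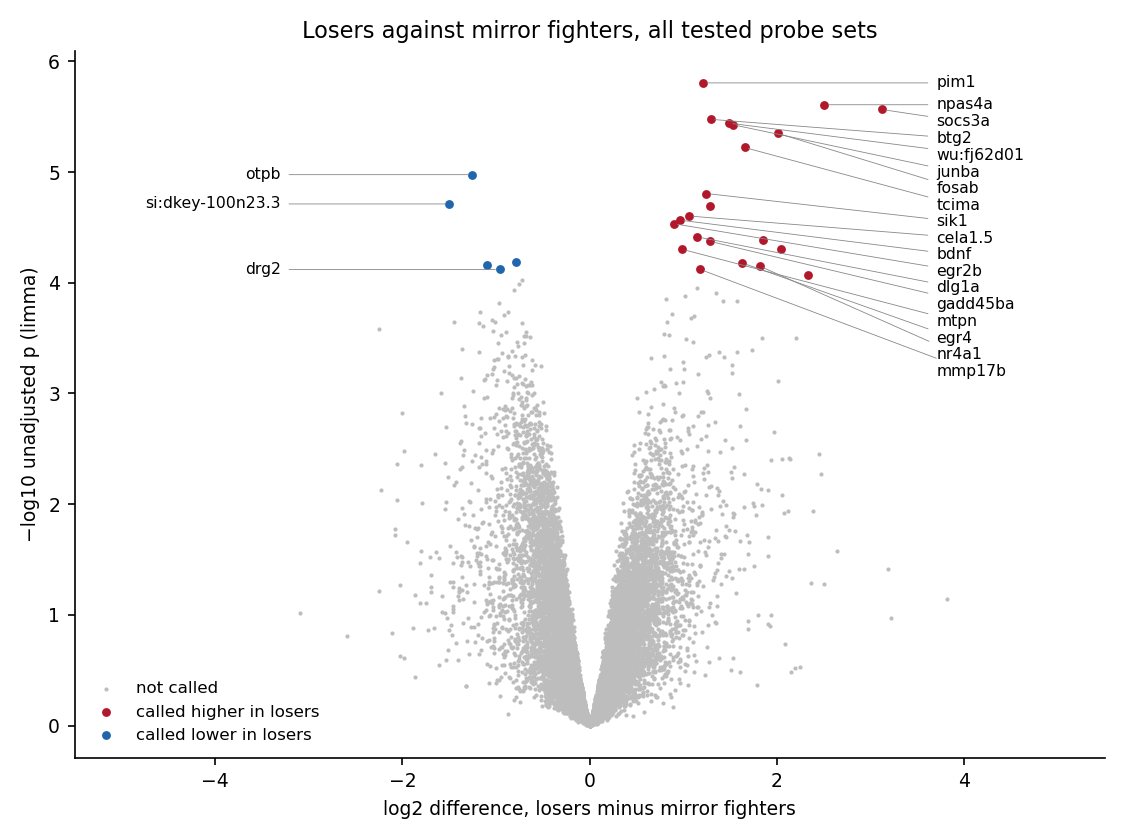
Each point is a tested probe set, placed by its log2 difference of losers minus mirror fighters (x axis) and by the minus log10 of its unadjusted limma p (y axis). Of the 27 called probe sets, 22 lie on the higher side and 5 on the lower side.

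Among transcription factors of the early response, 6 genes rose when any probe set of a gene was counted. npas4a read 4150.4, 4034 and 3004 on the 3 loser arrays, against 557, 564 and 876 on the 3 mirror fighter arrays. Every loser array lay far above every mirror fighter array, with a log2 difference of 2.50 ± 0.27 (SE; limma adjusted p = 0.00965). It read 3279.7, 3356 and 2213 in winners, while isolated fish had 220.1, 150.4 and 277, so mirror fighters lay above isolated fish too (log2 difference 1.64 ± 0.27, adjusted p = 0.192). Its log2 difference of losers minus winners was 0.35 ± 0.27.

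fosab had 4 probe sets, all higher in losers. The one with the smallest p read 379, 319.6 and 269 in losers, against 63.2, 76.8 and 103 in mirror fighters, a log2 difference of 2.01 ± 0.23 (limma adjusted p = 0.00989). A second passed at 1.86 (adjusted p = 0.0364), and the other two gave 1.38 and 1.74 (adjusted p = 0.0869 for each). On the first of these probe sets the lowest loser array lay well above the highest mirror fighter array. In winners it read 216, 218 and 182, below every loser array, with a log2 difference of losers minus winners of 0.64 ± 0.23 that did not pass (adjusted p = 1).

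junba, which encodes a Jun partner of Fos, read 452, 553 and 491 in losers, against 175, 162 and 181 in mirror fighters. These levels were tight within each group, and the log2 difference was 1.53 ± 0.17 (limma adjusted p = 0.00965). Mirror fighters stood close to isolated fish for this gene, at a log2 difference of 0.20.

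Among Egr genes, egr4 read 1409, 1108 and 943 in losers, against 283, 336 and 524 in mirror fighters (log2 difference 1.63 ± 0.26, limma adjusted p = 0.0452). egr2b had a smaller but very even rise, at 258, 248 and 255 in losers and 157, 127 and 127 in mirror fighters (0.90 ± 0.13, adjusted p = 0.0302). Isolated fish read only 71.2, 73.6 and 73.7 for egr2b, so on its scale losers, winners (197, 166 and 165), mirror fighters and isolated fish stood in that descending order without overlap. Its differences of losers minus winners, 0.53 ± 0.13 (adjusted p = 0.823), and of mirror fighters minus isolated fish, 0.91 ± 0.13 (adjusted p = 0.135), did not pass. The orphan nuclear receptor gene nr4a1 read 492, 292 and 374 in losers, against 102, 86.9 and 139 in mirror fighters, a log2 difference of 1.81 ± 0.29 (adjusted p = 0.0452). The calls of nr4a1 and egr4 were each lost in 11 of the 12 fits that left out 1 array, and that of egr2b in 10.

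The list of immediate early factors had 39 measured genes of 54, with 1 probe set per gene, the brightest. Of these, 5 rose and 0 fell, and fosab joined them when any probe set of a gene was counted. Over all 8793 genes by the same rule, 0.216% were called in either direction. The list's median log2 difference was 0.27, against -0.05 over all genes, and its per-array medians, taken from the mirror fighter mean, were 0.29, 0.27 and 0.39 on loser arrays and 0.01, -0.10 and 0.06 on mirror fighter arrays. Not all members were higher: 27 differences lay above 0 and 12 below, with klf11a at -1.36 (adjusted p = 0.15) and maff at -0.51 (adjusted p = 0.18). Among the best known members, egr1 stood at 1.16 (adjusted p = 0.12) and jun at 0.68, and neither passed.

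**Figure D3:**
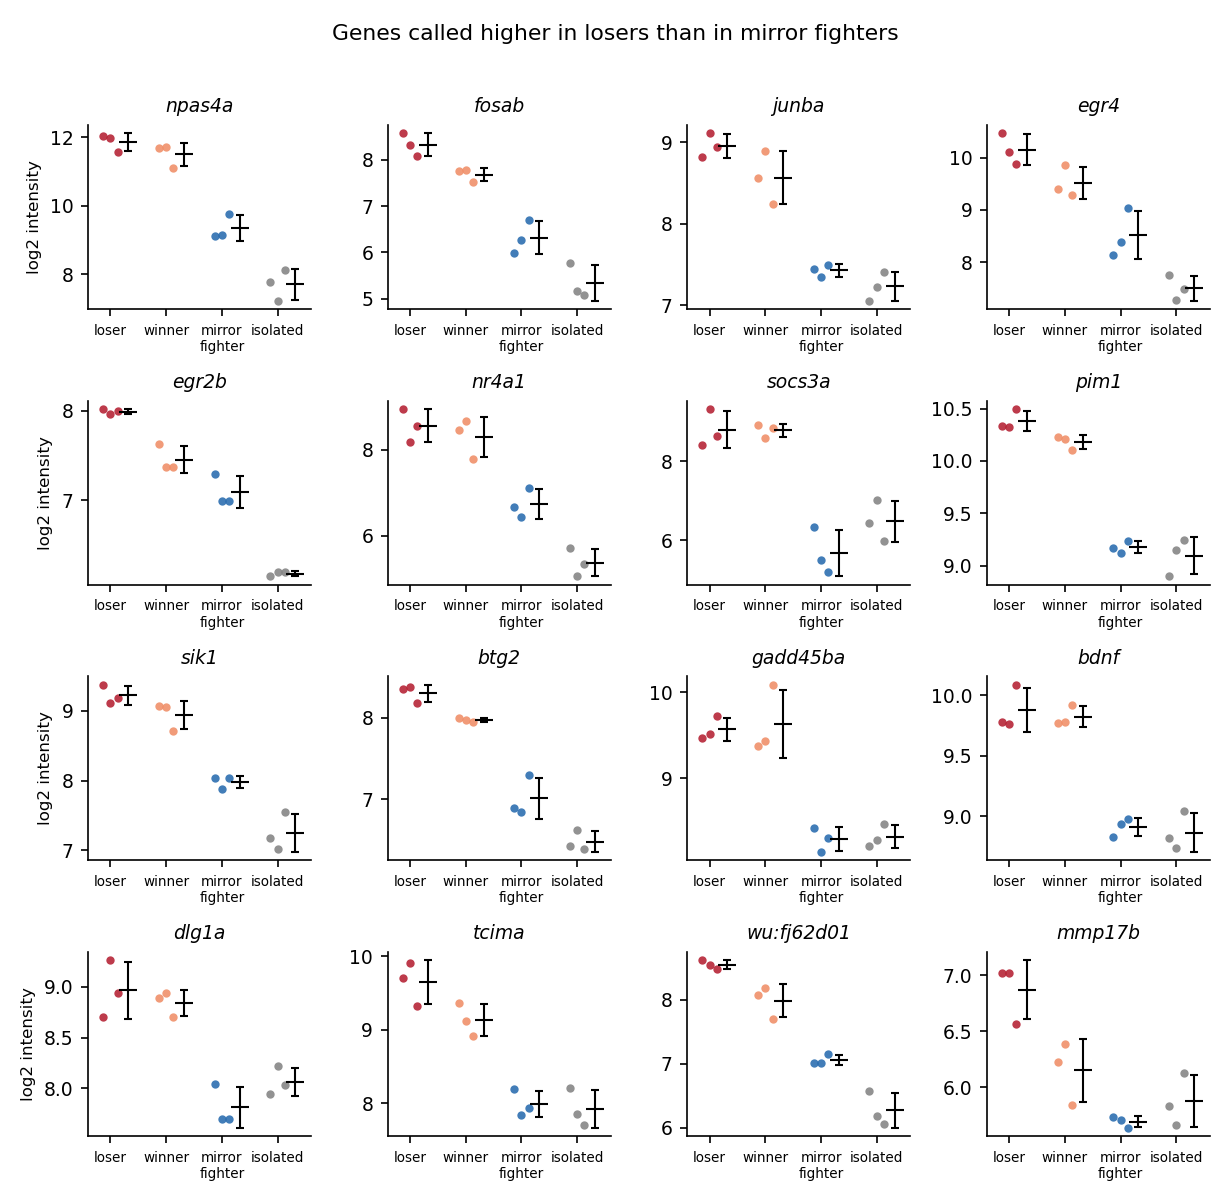
Intensity on a log2 axis of 16 genes that rose in losers against mirror fighters, with arrays as points and means ± SD as bars, for losers, winners, mirror fighters and isolated fish. In each panel the 3 loser points lie above the 3 mirror fighter points.

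Among feedback regulators of early signalling, 5 of 42 measured genes rose. socs3a, which encodes an inhibitor of JAK and STAT signalling downstream of cytokine receptors, read 342, 639 and 398 in losers, against 80.5, 44.9 and 36.7 in mirror fighters. The groups were far apart, with a log2 difference of 3.12 ± 0.35 (limma adjusted p = 0.00965). Without loser array 2 the adjusted p was 0.0543 and without mirror fighter array 2 it was 0.0834. Winners read 480.3, 387 and 462, inside the range of losers (difference of losers minus winners 0.01 ± 0.35). Isolated fish read 87.2, 129 and 63, and the difference of mirror fighters minus isolated fish was -0.81 ± 0.35.

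pim1, which encodes a kinase that STAT signalling induces in mammals, read 1292, 1279.7 and 1445 in losers, against 576, 557 and 604 in mirror fighters. The spread within each group was small and the log2 difference was 1.21 ± 0.13 (limma adjusted p = 0.00965). sik1, whose mammalian product restrains the coactivators of CREB, read 665, 552 and 584 in losers, against 262, 234 and 262 in mirror fighters (1.25 ± 0.17, adjusted p = 0.0242). Isolated fish lay lower still for sik1, at 144, 129.7 and 187, whereas for pim1 their 476, 567 and 606 spanned the mirror fighter values.

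btg2, an antiproliferative gene, read 327, 332 and 291 in losers, against 118, 115 and 158 in mirror fighters (log2 difference 1.29 ± 0.15, limma adjusted p = 0.00965). A second, dim probe set of btg2 gave 0.28 ± 0.33. The stress-inducible gene gadd45ba read 708, 729.8 and 847 in losers, against 343, 281 and 315 in mirror fighters (1.28 ± 0.19, adjusted p = 0.0364), and its other probe set gave a like 1.27 ± 0.28 that did not pass (adjusted p = 0.106). No loser array overlapped a mirror fighter array on these probe sets of btg2 and gadd45ba that passed. Winners had the highest single reading of gadd45ba, 1091, and the loser minus winner difference was -0.07.

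Of 58 listed feedback regulators 42 were measured. The 5 just given rose, 0 fell and 37 did not pass, where 0.216% of all genes were called in either direction. Their median log2 difference was 0.34, with 32 above 0 and 10 below, and per-array medians from the mirror fighter mean of 0.36, 0.41 and 0.53 on loser arrays and 0.12, -0.07 and -0.03 on mirror fighter arrays. With the hybridization controls as a covariate this median was 0.72, and that of the early factors was 0.30. On 19 of them all losers lay above all mirror fighters, where 8.8% of all genes did. On 3 all losers lay below all mirror fighters, where 17.4% of all genes did. Members that did not pass included the phosphatase genes dusp5 at 1.02 (limma adjusted p = 0.0614) and dusp1 at 1.26 (adjusted p = 0.152), the kinase gene plk2b at 1.11 (adjusted p = 0.0729), and gadd45aa, which pointed down at -0.74 (adjusted p = 0.15).

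Downstream of the early response, bdnf, a neurotrophin gene, read 880.3, 868 and 1088 in losers, against 454, 489 and 503 in mirror fighters. The lowest loser lay well above the highest mirror fighter, with a log2 difference of 0.97 ± 0.14 (limma adjusted p = 0.0301). Mirror fighters and isolated fish (451, 426 and 528) overlapped, and winners (872, 880.5 and 970.2) overlapped with losers. bdnf was the only member called among 16 measured of 39 listed later activity effectors, with 10 differences above 0, 6 below and a median of 0.08. The vault protein gene mvp reached 1.28 without passing (adjusted p = 0.111).

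dlg1a, which encodes a scaffold of the membrane-associated guanylate kinase family found at synapses, read 416, 612 and 490.4 in losers, against 264, 208 and 207 in mirror fighters (log2 difference 1.15 ± 0.17, limma adjusted p = 0.0364). It was the only call among 16 measured of 61 listed synaptic scaffold genes, of which 13 lay above 0 and 3 below, with a median of 0.31. Their per-array medians from the mirror fighter mean were 0.29, 0.25 and 0.19 on loser arrays and -0.02, -0.04 and 0.09 on mirror fighter arrays. Quantile normalization lowered the median of these synaptic genes to 0.17. homer3b, which encodes a postsynaptic scaffold protein, pointed the other way at -0.56 and did not pass.

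Rises outside these lists were mixed in kind. tcima, which encodes a small regulator of transcription and immune responses, read 834, 961 and 639 in losers, against 293, 229 and 245 in mirror fighters (log2 difference 1.65 ± 0.20, limma adjusted p = 0.0116), and a second probe set also passed (1.29 ± 0.18, adjusted p = 0.0263). wu:fj62d01, a gene named by its clone, read 391, 372 and 356 in losers, against 129.6, 129 and 141 in mirror fighters (1.48 ± 0.17, adjusted p = 0.00965). Values within each of these groups lay close together. In winners it read 270.2, 290.1 and 207, between losers and mirror fighters.

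mmp17b, which encodes a membrane-type matrix metalloproteinase, read 130.2, 130.3 and 94.8 in losers, against 53.1, 52.2 and 49.8 in mirror fighters (log2 difference 1.18 ± 0.19, limma adjusted p = 0.0452). Winners read 75, 83.5 and 57.2, below every loser array, yet the difference of losers minus winners, 0.72 ± 0.19, did not pass (adjusted p = 0.867). mtpn, the gene of myotrophin, fell outside the rule for naming genes and was named after its values were seen. It read 144, 116 and 99.2 in losers, against 65.6, 55.7 and 58.1 in mirror fighters (0.99 ± 0.15, adjusted p = 0.0386).

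Dim probe sets, 3 of the called rises, are those with a mean log2 intensity under 5.02, the lowest 25% of all. cela1.5, of the elastase family, read 2.37, 1.62 and 2.37 in losers and sat at the floor of 1 on every other array, so its call (log2 difference 1.06 ± 0.15, limma adjusted p = 0.0298) rested on values next to the floor and no fold is given. The remaining dim calls were probe sets with no symbol, at log2 differences of 2.34 and 2.04. The probe sets with no symbol that fell, at -1.10 and -0.78, were not dim.

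As fitted here 3 named genes fell, a count that changed with the processing as given above. otpb, needed in zebrafish for neuroendocrine and dopaminergic neurons of the hypothalamus, read 118, 99.6 and 125 in losers, against 248, 313 and 255 in mirror fighters. All losers lay below all mirror fighters, at a log2 difference of -1.25 ± 0.16 (limma adjusted p = 0.0182). Isolated fish (284, 221 and 269) overlapped with mirror fighters, while winners read 140.1, 174 and 166, above every loser array (difference of losers minus winners -0.49 ± 0.16, adjusted p = 1).

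si:dkey-100n23.3, which has a clone-based name, gave the largest fall among the called named genes. It read 167, 210.4 and 174 in losers, against 509, 639.7 and 425 in mirror fighters (log2 difference -1.50 ± 0.21, limma adjusted p = 0.0263). Winners lay between, at 311, 338 and 411, and the difference of losers minus winners was -0.94 ± 0.21 (adjusted p = 0.789). drg2, which encodes a GTP-binding protein, read 117, 110.1 and 149 in losers, against 243, 277 and 211 in mirror fighters (-0.96 ± 0.15, adjusted p = 0.0452). Isolated fish (192, 191 and 171) and winners (162, 154 and 176) lay between, above every loser array and below every mirror fighter array. Losers minus isolated fish gave -0.57 ± 0.15 (adjusted p = 0.102) and mirror fighters minus isolated fish 0.40 ± 0.15, and neither passed. The second probe set of drg2 gave -0.23 ± 0.28, and the call of drg2 was lost in 11 of the 12 fits that left out 1 array.

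2 further genes with the next smallest p did not pass. The homeobox gene hmx3a read 90.3, 94.3 and 93.7 in losers, against 146, 159 and 155 in mirror fighters (log2 difference -0.73 ± 0.12, limma adjusted p = 0.0523). nudt21, whose product acts in mRNA 3′-end processing, read 249.6, 215 and 209.6 in losers, against 369, 428 and 344 in mirror fighters (-0.76 ± 0.13, adjusted p = 0.0547). Both had groups that did not overlap.

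**Figure D4:**
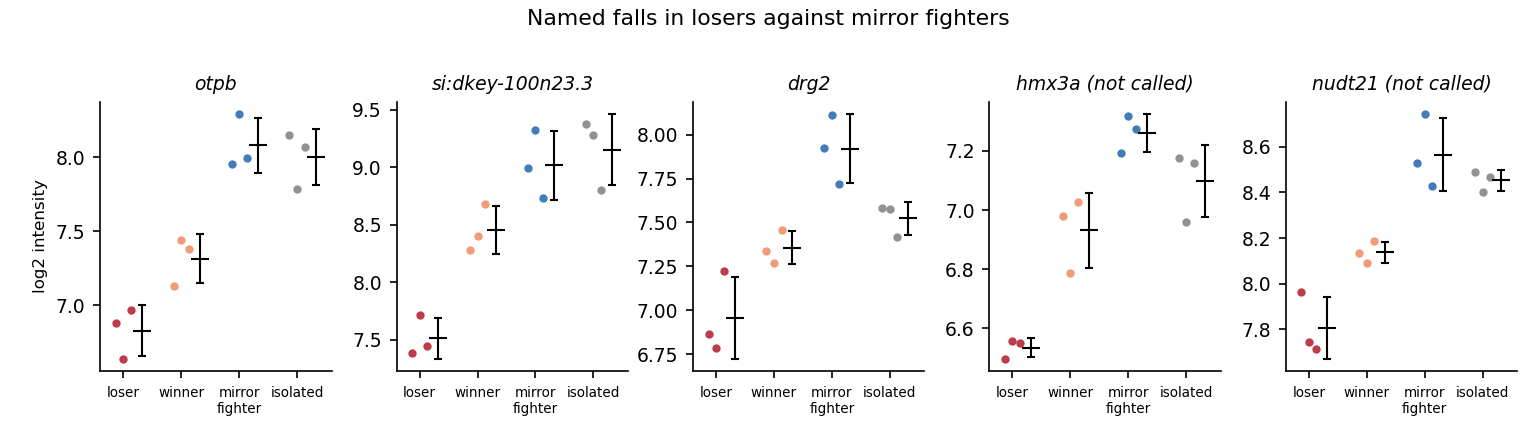
Intensity on a log2 axis of the 3 genes that fell in losers against mirror fighters (otpb, si:dkey-100n23.3 and drg2) and of hmx3a and nudt21, which did not pass, with arrays as points and means ± SD as bars. The loser points lie below the mirror fighter points in all panels, and isolated fish lie near mirror fighters for otpb.

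Hormone and transmitter genes were then read for the stress and mood systems that defeat is studied for. Of 53 listed genes of the stress axis and hypothalamus 20 were measured, of which otpb fell, 0 rose and 13 differences lay below 0 (median -0.23). Per-array medians from the mirror fighter mean overlapped, at -0.08, -0.09 and -0.07 on loser arrays and 0.05, 0.02 and -0.08 on mirror fighter arrays. On 4 of the 20 all losers lay below all mirror fighters, and on 0 above, where 17.4% and 8.8% of all genes did. The reproductive releasing hormone gene gnrh3 stood at -0.67 (limma adjusted p = 0.127), pmchl, for a melanin-concentrating hormone, at -1.54 (adjusted p = 0.18), and pomca, the precursor of corticotropin, at -0.60. avp, the gene of the fish vasopressin homologue, stood at 0.09 and npy at -0.06. None of these 5 genes passed.

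Glucocorticoid targets, which answer to cortisol, gave 0 calls among 27 measured of 37 (median 0.05). Over all genes 0.216% were called in either direction, so 0 calls in lists this small cannot show a lack of change. The textbook targets fkbp5, at 0.48 (limma adjusted p = 0.78), and tsc22d3, at 0.05, did not pass, and the members with the smallest p, dusp1 and cebpd (1.75, adjusted p = 0.17), also stand on the early lists. Monoamine genes gave 0 calls among 17 measured of 44 (median 0.03), with ddc, the enzyme that makes dopamine and serotonin from their precursors, at -0.59 (adjusted p = 0.231). At an unadjusted limma p under 0.05, 2 of the 27 glucocorticoid targets were higher and 1 was lower, where 5.96% and 12.8% of all genes were.

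The other process lists held no called gene, where 0.216% of all genes were called in either direction. Heat shock genes (41 measured) had a median log2 difference of -0.01, glycolysis genes (41) of -0.02, interferon and cytokine genes (22) of 0.02, cell cycle genes (49) of -0.13 and circadian genes (30) of 0.15. Among these, 23 of the 30 circadian genes lay above 0. The smallest p were those of cry3a, which was dim, at 0.60 and nfil3-6 at 0.77 (limma adjusted p = 0.137 for nfil3-6). The other probe set of nfil3-6 was lower in losers. Per-array medians of the circadian genes from the mirror fighter mean overlapped. They were 0.21, 0.05 and 0.23 on loser arrays and -0.04, -0.18 and 0.25 on mirror fighter arrays. Cell cycle genes leaned the other way, with 32 of 49 below 0 and ccnb3, a cyclin gene, at -0.78 (adjusted p = 0.126). These medians stand beside -0.05 over all 8793 genes.

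**Figure D5:**
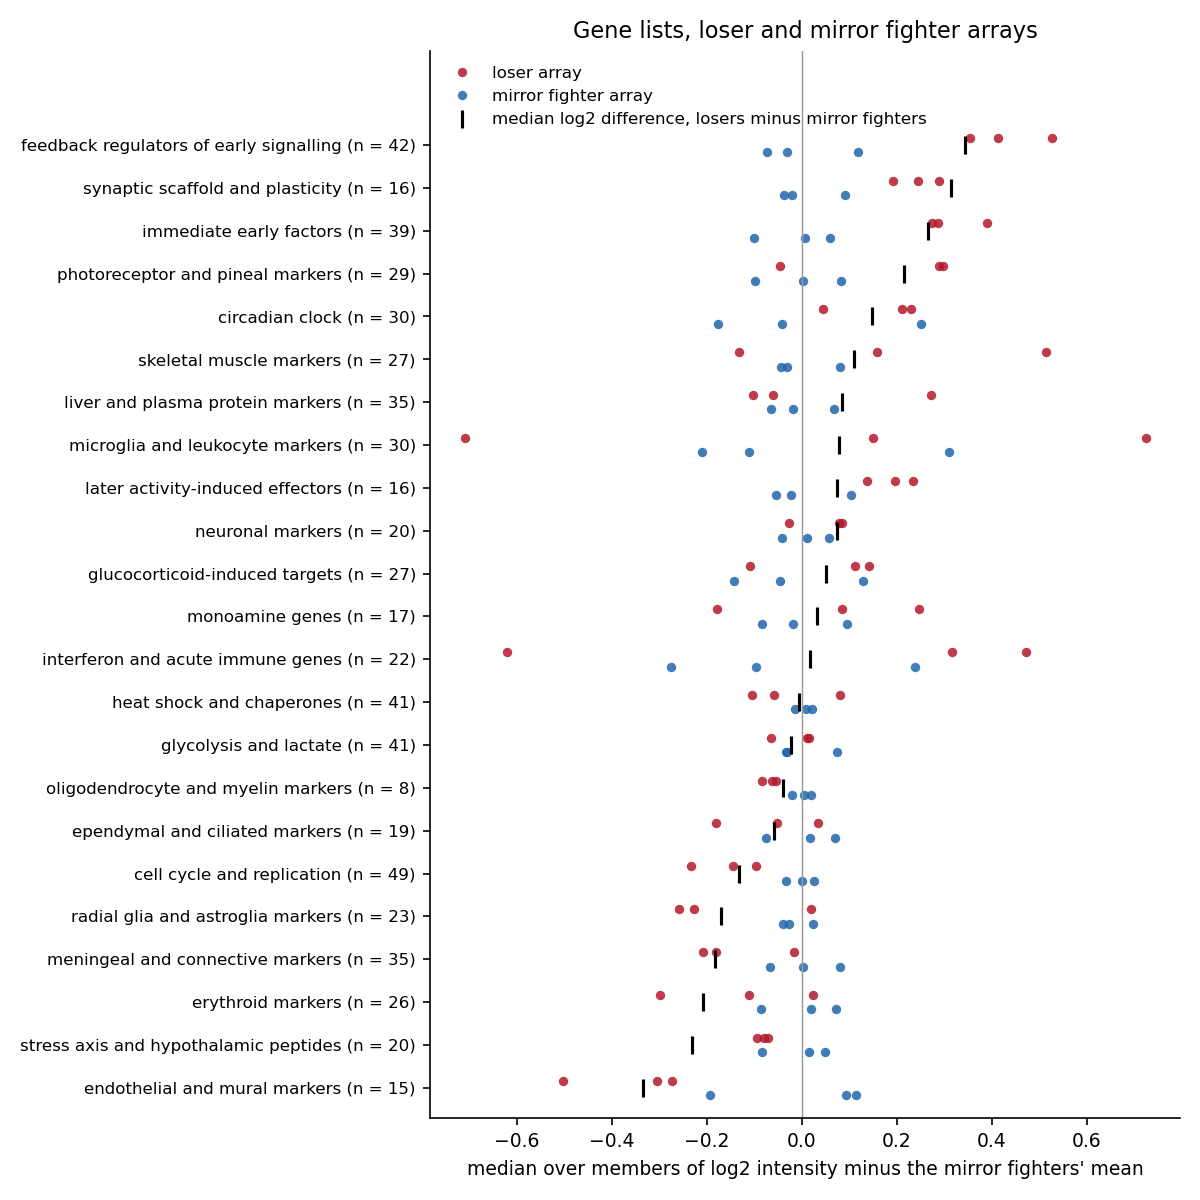
For each of the 23 gene lists, points give the median over members of log2 intensity minus the mirror fighter mean on each array, and the black tick gives the median log2 difference of losers minus mirror fighters. The early factors, feedback regulators, later activity effectors and synaptic scaffolds have loser arrays above mirror fighter arrays. The cell cycle genes, the oligodendrocyte markers and the endothelial and mural markers have them below.

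Markers of the cell types a whole brain holds were compared in the same way, and 0 members of these 11 lists were called. As only 0.216% of all genes were called in either direction, 0 calls cannot show that these markers were unchanged. The summed intensity of 20 neuronal markers was 71677 to 76005 on loser arrays and 65016 to 70071 on mirror fighter arrays, without overlap, with a median difference of 0.07 and 11 of 20 above 0. With quantile normalization this median was -0.03. The neuronal markers with the smallest p were lower in losers without overlap. They were gng3 at -0.80 (limma adjusted p = 0.087) and tubb5 at -0.61 (adjusted p = 0.167). The 8 oligodendrocyte markers summed to 12321 to 13747 in losers and 12519 to 13494 in mirror fighters (median -0.04). The 23 radial glia markers summed to 47763 to 54446 in losers and 50188 to 54267 in mirror fighters (median -0.17, 15 below 0). No marker in any of these lists was at the floor on all 6 arrays.

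Vascular and connective tissue markers summed to less in losers, though none of them passed the test. The 15 endothelial and mural markers summed to 1054 to 1299 on loser arrays and 1333 to 1682 on mirror fighter arrays, with 12 of 15 below 0 and a median of -0.33. The 35 meningeal and connective markers summed to 12110 to 13003 in losers and 13021 to 13755 in mirror fighters (24 below 0, median -0.18). With the hybridization controls as a covariate the medians of these lists were -0.58 for endothelial and -0.47 for meningeal markers. On 7 of the 15 endothelial members all losers lay below all mirror fighters, where 17.4% of all genes did so. Of the 35 meningeal members 6 did so, near that share, and on 3 all losers lay above, where 8.8% of all genes did. The per-array medians of the meningeal markers overlapped, at -0.02 on loser array 2 and -0.07 on mirror fighter array 3. The 19 ependymal markers summed to 1559 to 1805 in losers and 1785 to 1979 in mirror fighters (median -0.06). The part of these differences in the results was not tested.

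Blood and other tissues overlapped between the groups. The 30 microglia and leukocyte markers summed to 7506 to 17952 in losers and 9569 to 14083 in mirror fighters, and their per-array medians from the mirror fighter mean were 0.15, 0.72 and -0.71 on the 3 loser arrays. Loser array 2 was thus high and loser array 3 low in these markers. The 26 erythroid markers summed to 20903 to 27154 in losers and 23818 to 29102 in mirror fighters (median -0.21). Photoreceptor markers (29) summed to 1160 to 1323 in losers and 1217 to 1236 in mirror fighters, muscle markers (27) to 1493 to 2772 and 1797 to 2021, and liver and plasma markers (35) to 5974 to 7721 and 6116 to 7983 in the same order of groups. Of these 35, serpina1l, which was dim, stood at -2.25 ± 0.42 and did not pass (limma adjusted p = 0.0788), while 18 lay above 0.

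Whether a difference from mirror fighters belongs to losing, or to a real fight whatever its end, was addressed through the winners. Losers against winners gave 0 called probe sets of 15502, with 642 (4.14%) at an unadjusted p under 0.05. No label pairs loser with winner arrays, and the correlations of their deviations from group means did not settle it. With the replicate number as a block over all 12 arrays the count for losers against winners was also 0 (755 at an unadjusted p under 0.05). Winners against mirror fighters gave 1 call (0.00645%), socs3a, which rose with a log2 difference of 3.11 ± 0.35 (limma adjusted p = 0.0430), and 2611 probe sets (16.8%) at an unadjusted p under 0.05. These comparisons share arrays with that of losers and mirror fighters. The 27 calls in losers and the 1 call in winners are therefore no test that the groups differ, and no gene was shown to be particular to losers.

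Set side by side, the named rises took several forms. For socs3a, gadd45ba and bdnf, the differences of losers minus winners, 0.01 ± 0.35, -0.07 ± 0.19 and 0.05 ± 0.14, were smaller than their standard errors. For fosab, egr4, egr2b and mmp17b, losers read above winners by 0.64, 0.64, 0.53 and 0.72, and in each of these 4 genes every winner array lay below every loser array (egr4 read 676, 923 and 622 in winners). None of these differences passed (limma adjusted p = 0.823 to 1). Every winner array also lay below every loser array for wu:fj62d01, btg2, sik1 and pim1, and for cela1.5, which read next to the floor. None of those differences passed either, and in the remaining named rises winners and losers overlapped. Lack of overlap with winners therefore did not set fosab, egr4, egr2b and mmp17b apart. All these genes were chosen for reading high on the same loser arrays. The share of all probe sets without overlap between losers and winners is not given here. Mirror fighters lay above isolated fish by 1.36 for nr4a1, 1.02 for egr4 and 0.97 for fosab, while for pim1, tcima and gadd45ba the same difference was 0.08, 0.07 and -0.03. Mirror fighters against isolated fish gave 0 calls, with 594 probe sets (3.83%) at an unadjusted p under 0.05.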

How the data were processed

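Whole-brain RNA of 12 zebrafish samples, 3 per group, was hybridized to one-colour Affymetrix zebrafish arrays, from 100 ng of total RNA per the labels' protocols. The labels name a lipid tissue column kit in one field and Trizol in another for the extraction. The deposited series table holds a linear signal intensity for each probe set on each array. How the authors summarised and normalized these intensity values is not given in the sources used here, and the submitters' processing notes name only Partek 6.6. Values had a floor of 1, and 12 to 24 probe sets per array sat at it. Between 23.2% and 26.5% of probe sets per array read below 32, and the number of arrays limits the precision.

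The log2 of each value was fitted with limma 3.58.1 (R 4.3.3), with 1 mean per group over all 12 arrays, 8 residual and 2.55 prior degrees of freedom, and the contrast of losers minus mirror fighters. Calls were made two-sided at 0.05 after Benjamini-Hochberg adjustment over 15502 probe sets. Differences are log2 values with the standard error of this fit and n = 3 arrays per group. The script was tested on simulated data. Gene names come from the platform annotation (135 probe sets had several symbols and 4572 had none, and these name no gene), and 10711 of the 10795 single-symbol probe sets were matched by gene identifier to the GRCz12tu gene table. No genome build is named, so no coordinates are given.

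Named genes were the 15 largest rises and falls among called single-symbol probe sets without overlap between the groups, with places up to 5 per direction filled by smallest p, every called list member, and up to 2 members per list with the smallest p. Where a gene has several probe sets, the one with the smallest p is named, and lists use the brightest. Further members are given as examples. The comparison, the 23 lists and the named genes were chosen with earlier results of these data known. Alternatives were other scalings, offsets, filters, moderation, gene means, weights, covariates, a replicate block and leaving out each array. Same-numbered loser and mirror fighter arrays deviated from their group means with correlations of 0.0258, -0.0403 and -0.0211, so the numbers were not taken to pair these arrays. For losers and winners the correlations were 0.112, 0.111 and 0.233, each over 0.1, with no label stating a pairing. Same-numbered loser and isolated arrays, which shared no fight, gave 0.0277, 0.098 and 0.0987. Whether losers and winners were paired was thus not settled. The differences of losers minus winners come from the fit without a block, and the count with the block stands beside that comparison.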

Additional observations from a re-analysis of the deposited data

How the results depend on the processing

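None of the called genes chosen by the naming rule reversed direction under any alternative run, but many calls were lost. As their groups did not overlap, leaving out 1 array could not reverse a difference. Nor could the 6 arrays alone, a replicate block or another moderation. Losers against mirror fighters had 27 called probe sets (22 higher, 5 lower). The count was 0 (0 higher, 0 lower) with only the 6 arrays compared and with the hybridization controls as a covariate, and every called gene chosen by the naming rule lost its call in both. It was 53 (24 lower) with 32 added before log2, 71 (34 higher, 37 lower) without the dimmest 25%, 44 (15 lower) with trended and robust moderation, 38 (21 lower) without moderation and 1350 (497 higher, 853 lower) with array weights, which gave mirror fighter array 1 a weight of 7.25. Median-centred arrays gave 27 (2 lower), quantile normalization 28 and gene means 20. With the number as a replicate block the count was 14 (14 higher, 0 lower) over all 12 arrays and 0 over the 6 (2091 at an unadjusted p under 0.05). Leaving out 1 array gave 0 to 27 calls (0 to 20 higher, 0 to 8 lower). Losers against winners kept 0 calls in the other settings and had 0 to 2 without 1 array. Winners against mirror fighters (1 call) had 4 with quantile normalization, 3 with centred arrays, 3 without moderation, 3 with gene means, 31 with the offset of 32, 19 without dim probe sets, 30 with trended moderation, 861 with array weights, 0 with the replicate block (2816 at an unadjusted p under 0.05), 0 with the covariate (1603) and 0 to 5 without 1 array. The cause of these changes was not tested. Fits without some arrays also had fewer arrays from which to estimate the spread, and the part of this was not tested either. Calls of socs3a were lost in 5 of 24 alternatives, of npas4a, fosab, junba and pim1 in 6, of otpb in 9, of bdnf in 12, of nr4a1 and egr4 in 16 and of drg2 in 18. Those of dlg1a were lost in 13, of egr2b in 14, and of gadd45ba and mmp17b in 15. hmx3a and nudt21 passed in 5. cela1.5 fell to a difference of 0.05 with 32 added. Of 552 list medians under alternatives, 501 moved by less than the spread between arrays. Leaving out a winner or isolated array, the 6 arrays alone, other moderation and the replicate blocks cannot move a median. Medians under these settings are counted among the 501. Of the 51 that moved further, 20 did so with the hybridization controls as a covariate.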

Other observations

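A wider group of genes lay just beyond the threshold in losers against mirror fighters. At a limma adjusted p under 0.1 there were 108 probe sets, 52 higher and 56 lower in losers, and the genes given here from between 0.05 and 0.1 were chosen after their values were seen and did not pass. Among transcription factor genes in this range, pou5f3, a POU-family gene, stood higher in losers at 0.81 ± 0.14 (adjusted p = 0.0636), and those that follow stood lower. nkx2.1, a regulator of hypothalamic development, read 18, 21.2 and 26.2 in losers, against 47.6, 49.8 and 37.5 in mirror fighters (log2 difference -1.05 ± 0.19, adjusted p = 0.0736). isl1a, a LIM homeobox gene of differentiating neurons, read 19.2, 30.8 and 43.5 in losers, against 79.6, 72.9 and 90.2 in mirror fighters (-1.45 ± 0.27, adjusted p = 0.0736). sox3, a factor of neural progenitors, read 373, 380.1 and 420.1 in losers, against 699, 796 and 685 in mirror fighters (-0.89 ± 0.17, adjusted p = 0.0788). Of its 2 other probe sets, both lower in losers, one gave -1.02 ± 0.21. her6, a Hes-family repressor that Notch signalling induces, read 339, 435 and 440.1 in losers, against 737, 779 and 688 in mirror fighters (-0.87 ± 0.17, adjusted p = 0.0869). Winners overlapped with losers for sox3, at 364, 541 and 419.9.

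Other genes in that range included csf1ra, the receptor gene of microglia and other macrophages, which read 30, 33.4 and 22.8 in losers, against 58.2, 46.1 and 65.2 in mirror fighters (log2 difference -0.98 ± 0.20, limma adjusted p = 0.0869), while 16 of the 30 microglia and leukocyte markers lay above 0 (median 0.08). egr2a, the paralog of egr2b, read 206, 175 and 288 in losers, against 105, 86.8 and 113 in mirror fighters (1.11 ± 0.21, adjusted p = 0.081). A pair of dim erythroid genes, fech (the last enzyme of haem synthesis) and ank1a (a red cell membrane skeleton protein), read higher in losers at 1.35 ± 0.23 and 1.57 ± 0.27, while 17 of the 26 erythroid markers lay below 0. si:dkey-100n23.5, named from the same clone as si:dkey-100n23.3, stood at -0.69 ± 0.13 (adjusted p = 0.0788). nudt21, at -0.76 ± 0.13, and cpsf3, at -0.68 ± 0.13 (adjusted p = 0.0788), both encode factors of mRNA 3′-end cleavage.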
